A study of Mus musculus with 18 samples.

Results

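The retinas of uninjured DBA/2J and C57BL/6J mice were compared on 6 arrays, 3 per strain, each carrying RNA pooled from 2 retinas. Of the 46116 probes on the Illumina Sentrix Mouse-6 array, the 29534 whose annotation names exactly 1 gene symbol, in all 17658 genes, are described here. The mice were males of 60 to 90 days by their labels and had no optic nerve crush. The whole series holds 18 arrays, and the others, at 2 and 5 days after crush of the optic nerve in the same strains, serve below only to ask whether a difference seen in uninjured retina was also found in other mice. Whole retina was used, so fewer cells of a type and less RNA per cell cannot be told apart. The labels do not say how the mice of an array were chosen, and p-values measure the spread between these pooled samples.

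C57BL/6J and DBA/2J are inbred strains of separate origin that differ at many loci with known alleles. DBA/2J carries stop-codon and missense alleles of the melanosome genes Gpnmb and Tyrp1, which lead to iris disease and glaucoma in older mice, and the coat colour allele dilute of Myo5a. It also carries extra copies of a block around Glo1, which encodes the glyoxalase that clears methylglyoxal, and of a block around Alad, whose enzyme takes part in making haem. C57BL/6J carries a deletion in Nnt, a transhydrogenase gene of mitochondria, and has another haplotype of the H2 complex, which holds the transplantation antigens.

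Levels are given in units of a scale that sets the mean log2 signal of each array to 8 and its SD to 2. One unit was 0.51 to 0.56 log2 on the control arrays, with a median of 0.55, or 1.46-fold. A difference is DBA/2J minus C57BL/6J throughout. A probe is called where limma, fitted to these 6 arrays alone, gave an adjusted p under 0.03, and "higher" and "lower" refer to DBA/2J.

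Median signals of the control arrays lay between 131.5 and 210.4, and signal at the 95th percentile was 8.53 to 10.2 times that at the 5th. The arrays carried retina, since the mean level of 17 rod genes lay between 16.79 and 17.26 on all 6. 2 arrays of C57BL/6J stood apart. Replicate 1 read 11.27 units for Xist, which is transcribed in females, against 7.05 to 7.55 on the other 5, and 7.02 units for Eif2s3y on the Y chromosome against 12.34 to 13.15, although all arrays are labelled male. Replicate 3 read high for genes of the lens, as given below. Without replicate 1, 143 probes were called, 117 of them among those called with all 6 arrays, and without replicate 3, 85 were called, 83 of them shared. Leaving out an array that did not stand apart in these genes also lowered the count, to 90 without C57BL/6J replicate 2, 106 without DBA/2J replicate 1, 135 without DBA/2J replicate 2 and 200 without DBA/2J replicate 3. At 2 days, the arrays labelled C57BL/6J replicate 3 and DBA/2J replicate 1 each read like the controls of the opposite strain over the 124 probes called both in controls and at 5 days, so results from that day are given with and without them.

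Between the strains, 222 probes of 206 genes were called, 0.752% of the 29534 tested and 1.17% of the genes. Over all 46116 probes the share was 0.698%, and over those without a symbol or with several it was 0.603%. They comprised 82 higher probes, 0.278%, and 140 lower ones, 0.474%. The higher differences ran from 0.75 to 5.26 units with a median of 1.53, and the lower ones from -5.47 to -0.78 with a median of -1.71. At every called probe the arrays of the strains did not overlap, which was also true of 12.8% of all 29534 probes, and an unadjusted p under 0.05 was reached by 7.61%. A mean level under 8 was found at 16.2% of the called probes and at 67.1% of all. Of the 222 calls, 69 held with each of the 6 arrays left out in turn and 38 in none of those fits. SAM, the test named in the study's methods, called 497 probes at its false discovery rate of 0.03, and all 222 were among them.

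**Figure D1:**
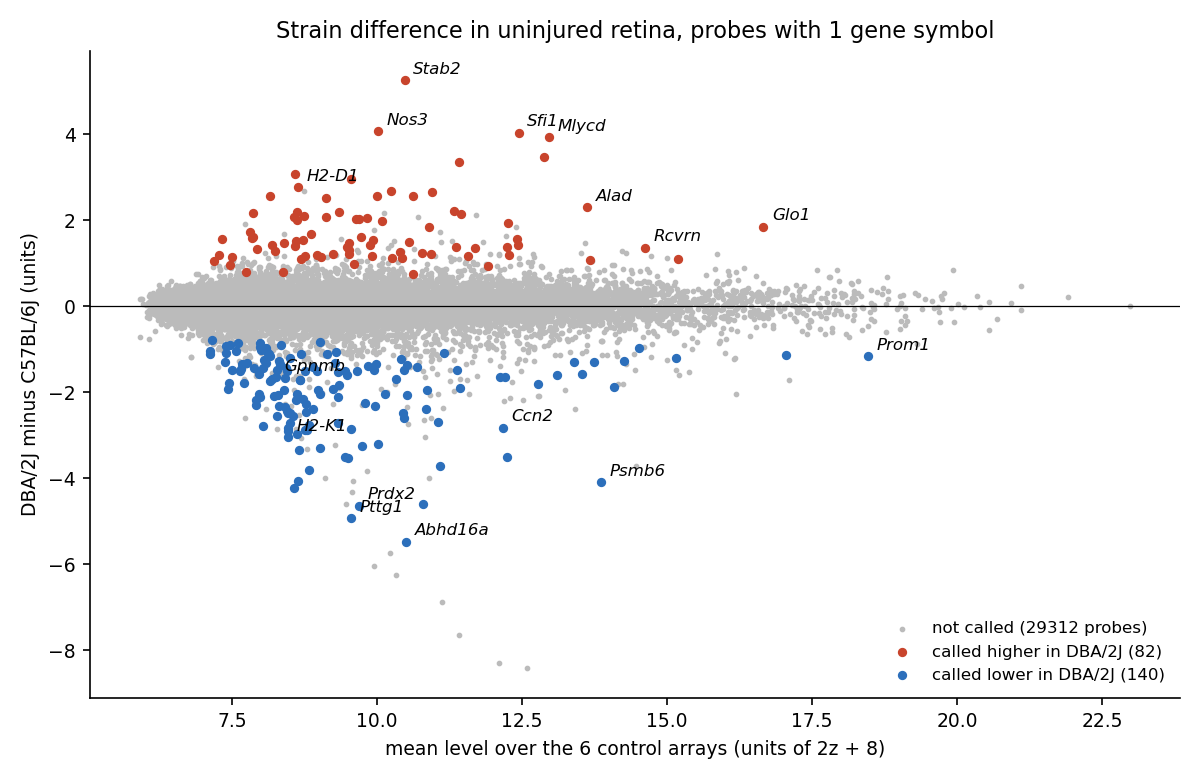
Difference between the strains (DBA/2J minus C57BL/6J, in units) against the mean level over the 6 control arrays, with one point for each of the 29534 probes with 1 gene symbol and colours for the 82 higher and 140 lower called probes. The called probes reach from -5.47 for Abhd16a to 5.26 for Stab2, and the uncalled points below -5.5 are lens crystallins.

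Among called probes, the largest higher difference was at Stab2, which encodes stabilin-2, a scavenger receptor that takes up hyaluronan and is known from the lining of sinusoids. C57BL/6J arrays read 8.02, 7.84 and 7.68 units and DBA/2J arrays 12.80, 12.34 and 14.20, a difference of 5.26 ± 0.43 (SE) with an adjusted p of 0.00163. All 3 DBA/2J arrays thus lay more than 4 units above the highest C57BL/6J array, and after quantile normalization the difference was 7.27-fold. Nos3, the endothelial nitric oxide synthase, was higher at each of its called probes. One read 7.89, 7.99 and 8.04 units in C57BL/6J and 12.09, 12.03 and 12.05 in DBA/2J, with hardly any spread within a strain, a difference of 4.08 ± 0.12 (adjusted p = 2.28e-05). The other read 8.28, 7.98 and 7.93 against 11.08, 10.52 and 11.51, a difference of 2.97 ± 0.25. Among 17 measured genes of the vessel wall, Nos3 alone was called, where 1.17% of all genes were called. The median difference of their probes with the highest level was 0.01 units.

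The other large higher differences among called probes were at genes of varied roles. Mlycd, the malonyl-CoA decarboxylase that sets the supply of malonyl-CoA for fatty acid metabolism, read 10.86, 11.02 and 11.10 units in C57BL/6J and 15.13, 15.10 and 14.58 in DBA/2J (difference 3.94 ± 0.18). Sfi1, a centrin-binding protein of the centrosome, rose from 10.56, 10.32 and 10.41 units to 14.80, 14.80 and 13.80 (4.04 ± 0.27). These groups lay over 2 units apart at their nearest arrays. Tcea3, a transcription elongation factor, spread more in DBA/2J, at 13.03, 12.23 and 13.99 units against 10.26, 9.30 and 9.64 (3.35 ± 0.44), and its call held in only 2 of the 6 fits that left out 1 array. Lrrk1, a protein kinase with leucine-rich repeats, read 6.99, 6.90 and 7.21 units in C57BL/6J and 10.19, 10.26 and 9.93 in DBA/2J (3.09 ± 0.15). Further probes with mean levels under 8 differed by -0.13 and 0.01 for Lrrk1 and by 0.67 for Sfi1. The 12 largest differences were completed by 6330403K07Rik (3.48), the second probe of Nos3, H2-D1 (2.77), the translation factor Paip1 (2.67), the actin scaffold Iqgap1 (2.65) and the globin gene Hbb-b2 (2.58).

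Among called probes, the largest lower difference was at Abhd16a, a lipase of phosphatidylserine whose gene lies in the H2 region. C57BL/6J arrays read 13.29, 13.26 and 13.16 units and DBA/2J arrays 7.96, 7.81 and 7.53, so that it fell by 5.47 units ± 0.15 (SE) in DBA/2J (adjusted p = 2.28e-05), or 7.86-fold after quantile normalization. Pttg1, the securin that holds sister chromatids together until anaphase, read 11.15, 12.58 and 12.30 units against 7.25, 6.85 and 7.16 (-4.92 ± 0.35). In both genes the DBA/2J arrays lay below 8, the mean of all probes. Prdx2, a peroxiredoxin that reduces hydrogen peroxide, read 12.14, 11.88 and 12.01 units in C57BL/6J and 7.41, 7.56 and 7.17 in DBA/2J (-4.63 ± 0.15). Soga3 read 13.75, 12.97 and 12.57 against 8.39, 8.66 and 8.42 (-4.60 ± 0.28), and its further probe, with a mean level of 7.96, differed by -0.33.

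The other 8 of the 12 largest lower differences among called probes were at genes of varied roles. Psmb6, a catalytic subunit of the proteasome, was high in both strains and lower in DBA/2J, at 11.82, 12.39 and 11.25 units against 16.30, 15.55 and 15.85 (-4.08 ± 0.31). Sv2b, a glycoprotein of synaptic vesicles, read 11.07, 10.65 and 10.32 units in C57BL/6J and 6.55, 6.32 and 6.49 in DBA/2J (-4.23 ± 0.20). Samsn1, an adaptor protein of lymphocytes, fell from 11.21, 10.48 and 10.48 units to 6.85, 6.99 and 6.96 (-3.79 ± 0.21). Its further probes, with mean levels of 8.78 and 7.28 against 8.83 for the called one, differed by -0.00 and -0.28. Coq2, which makes coenzyme Q, read 10.64, 11.39 and 11.56 units against 7.70, 8.11 and 7.26 (-3.51 ± 0.29). Ndufb10, a subunit of respiratory complex I, differed by -3.49 ± 0.48, and its call held in only 1 of the 6 fits with an array left out. Thumpd1 (-4.06), which takes part in the acetylation of tRNA, Rusc2 (-3.71) and Pdxdc1 (-3.53) completed the 12, and each of these held in all 6 fits. A further probe of Thumpd1, with a mean level of 6.77, differed by 0.11.

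**Figure D2:**
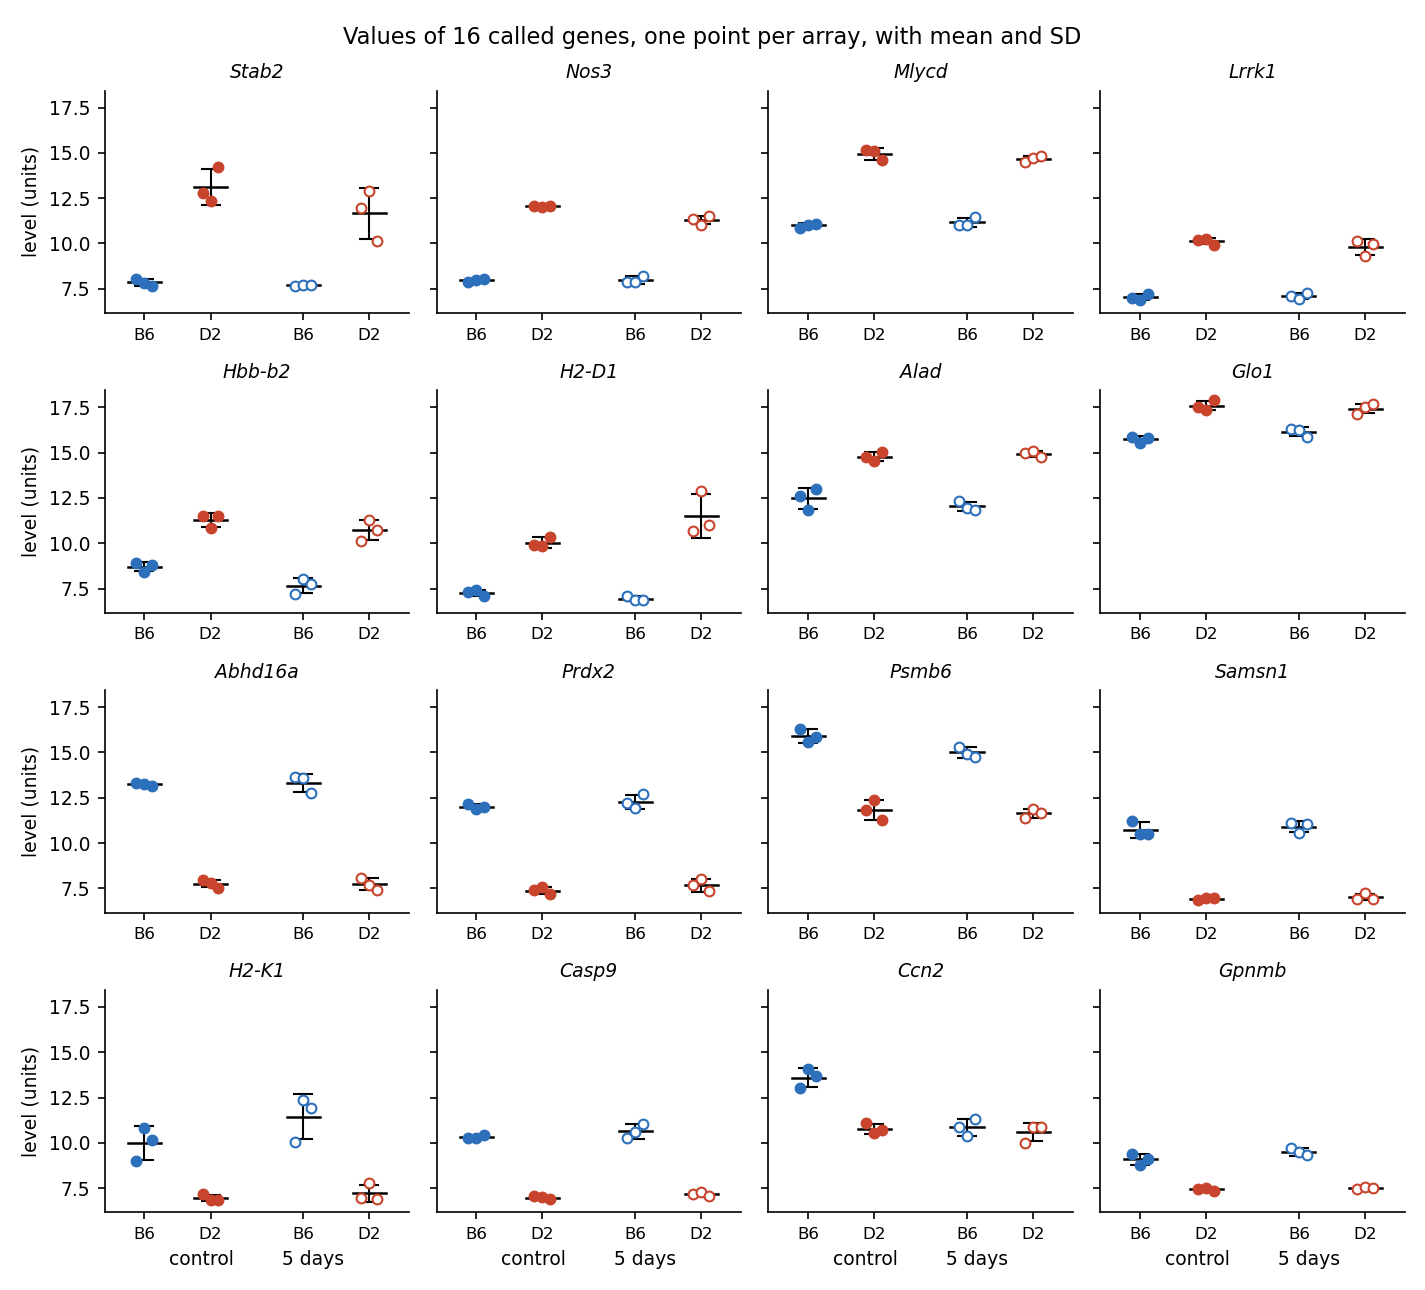
Levels (units) of 16 called genes, at the called probe with the largest difference, in C57BL/6J (B6, blue) and DBA/2J (D2, red), with filled points for the control arrays and open points for the arrays at 5 days after crush. Each point is an array, and bars give the mean and SD of 3 arrays. In the controls the strains do not overlap at any of the 16, and Ccn2 is the gene whose strains overlap at 5 days.

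Among 11 measured genes at which alleles of these strains are documented, 3 were called, against 1.17% of all 17658 genes. Glo1 read 15.86, 15.55 and 15.79 units in C57BL/6J and 17.52, 17.37 and 17.88 in DBA/2J, a difference of 1.86 ± 0.17 units (adjusted p = 0.00298), or 2.00-fold after quantile normalization. The gene was thus higher in the strain with the extra copies on every array, and the call held in all 6 fits with an array left out. Alad read 12.60, 11.83 and 12.98 units against 14.76, 14.54 and 15.05, a difference of 2.31 ± 0.29 (adjusted p = 0.0137), or 2.37-fold, and held in 3 of the 6. Gpnmb, whose DBA/2J allele has a premature stop codon, read 9.41, 8.77 and 9.09 units in C57BL/6J and 7.46, 7.53 and 7.34 in DBA/2J at its called probe (-1.64 ± 0.18). Its other 3 probes, all with levels under 8, differed by -0.28, -0.06 and 0.13 and were not called.

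The neighbours of Glo1 and Alad in the duplicated blocks were measured too. Next to Glo1, Btbd9, Dnah8 and Glp1r differed by -0.16 to 0.23 units, and none of their probes was called. Of 9 measured genes of the Alad block, Alad was the only one called. Hdhd3, the gene beside it, read 7.61, 7.42 and 7.51 units in C57BL/6J and 8.47, 8.16 and 8.64 in DBA/2J, a difference of 0.91 with an adjusted p of 0.0515. Pole3, on the other side, differed by 0.82 (adjusted p = 0.195) at one probe and by 0.08 at another. The remaining genes of the block, Bspry, Cdc26, Fkbp15, Rnf183, Slc31a1 and Wdr31, differed by -0.44 to 0.24 units at all of their probes.

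The other documented alleles gave smaller values that did not pass the test. Gabra2, a subunit of the GABA-A receptor, read 8.90, 9.45 and 8.78 units in C57BL/6J and 10.21, 10.67 and 10.04 in DBA/2J, and the difference of 1.26 had an adjusted p of 0.0666. Myo5a, a motor of melanosomes, differed by -1.09 (adjusted p = 0.0607) at the probe with its highest level, without overlap of the strains. Fscn2, an actin-bundling protein of photoreceptors, differed by -0.88 (adjusted p = 0.192). Of 8 probes for Nnt the one with the smallest adjusted p read 7.45, 7.43 and 7.28 units in C57BL/6J and 6.57, 6.76 and 6.52 in DBA/2J, a difference of -0.77 (adjusted p = 0.046), and the others lay between -0.13 and 0.43. Tyrp1, Hc, Klrd1 and H2-Ea differed by 0.01 to 0.22 units, at levels of about 7 to 8.

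Class I genes of the H2 complex, which present peptides to T cells, included a large difference in each direction. H2-D1 read 7.31, 7.40 and 7.07 units in C57BL/6J and 9.89, 9.84 and 10.37 in DBA/2J at its called probe (2.77 ± 0.18, adjusted p = 0.000584). Its second probe differed by 1.17, from 10.46, 10.89 and 9.93 to 11.39, 11.98 and 11.40, with no overlap and an adjusted p of 0.157. H2-K1 went the other way, with 8.99, 10.82 and 10.16 units in C57BL/6J and 7.17, 6.83 and 6.86 in DBA/2J (-3.04 ± 0.41). That call had an adjusted p of 0.0192, held in only 1 of the 6 fits with an array left out, and was not shared by 2 further probes of H2-K1, at 0.25 and -0.12. Of 37 measured H2 genes these were the only ones called, and the median difference of the family was -0.04 units. None of the 13 class II genes, and none of the 28 measured genes of the interferon response, was called. Over all genes 1.17% were called, and having none in lists of this size lies near that share.

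Globins were read by many probes. Hbb-b2, an adult beta-globin gene, read 8.89, 8.44 and 8.80 units in C57BL/6J and 11.49, 10.85 and 11.52 in DBA/2J (2.58 ± 0.22, adjusted p = 0.00189). Probes annotated to other beta-globin genes did not follow. The 9 probes for Hbb-bs differed by -1.31 to 1.05 units and Hbb-bt by -0.87, and none of them was called. The beta-globin genes are close copies of each other, so which copy a probe reads is uncertain. The mean level of 13 red cell and haemoglobin genes was 8.71 to 9.12 on the C57BL/6J arrays and 9.23 to 9.55 on the DBA/2J arrays, without overlap, and the part of blood in these values was not tested.

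At least 1 further probe was present for 118 called genes, and 88 had none. The 254 further probes were used to ask whether a gene's probes moved together. Of these, 151, or 59.4%, had a difference of the same sign as the called probe with the largest difference, against 54.6% of 11876 further probes over all genes with several. The median of the further probes in the direction of the called one was 0.06 units, where the called probes themselves had a median of 1.64. Among the 94 further probes with a mean level of 8 or more, 62 had the same sign and the median was 0.32 units, while 89 of the 160 dimmer ones had it, with a median of 0.03. Differences of 1 unit or more in the same direction were found at 25 further probes, and in the opposite direction at 6. All further probes had the same sign in 52 genes and none did in 28.

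A second probe was called in 15 genes, and in 14 of these the called probes went the same way. Itgae, the alpha E integrin of lymphocytes in epithelia, was called at 3 probes. They read 7.38 to 7.67, 7.43 to 7.85 and 7.88 to 8.05 units in C57BL/6J and 9.47 to 9.74, 9.57 to 9.72 and 9.19 to 9.65 in DBA/2J, differences of 2.08, 2.00 and 1.54. Iqgap1 was higher at its called pair of probes by 2.65 and 2.04 units, Rtkn2 by 1.59 and 1.57, Faah, which degrades anandamide, by 1.51 and 1.21, and Snx27, which recycles receptors from endosomes, by 1.26 and 1.23. Lower at a pair of probes were Zfp933 (-2.54 and -2.46), Padi2, which converts arginine to citrulline in proteins (-1.89 and -1.51), Dap3 of the mitochondrial ribosome (-1.88 and -1.60), Diaph3, a formin of the actin skeleton (-1.51 and -1.31), and Gucy1a1, a subunit of the nitric oxide receptor (-1.23 and -1.06). The calls of Gucy1a1 held in none of the 6 fits with an array left out, and those of Snx27 in 1 each. In the order given, those of Diaph3 held in 1 and 0 fits, Faah in 2 and 1, and Padi2 in 4 and 1. Those of Dap3 held in 2 and 4, Iqgap1 in 4 and 2, and both of Rtkn2 in all 6.

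Other genes had probes that disagreed. Map2, a microtubule protein of dendrites, was the only gene called in both directions. One probe fell from 9.85, 9.73 and 10.07 units to 7.03, 7.10 and 7.03 (-2.83, adjusted p = 0.000147) while another rose from 10.16, 10.25 and 10.74 to 12.64, 13.11 and 11.82 (2.14, adjusted p = 0.0297, held in 1 of 6 fits). Prdx2 was lower at its called probes by -4.63 and -1.11 units, but another probe read 16.07, 14.74 and 15.06 units in C57BL/6J and 15.61, 14.23 and 16.32 in DBA/2J, a difference of 0.10. For Sv2b, the second probe was at 18.40, 18.47 and 18.26 units against 18.23, 18.26 and 17.67, and its difference was -0.32 where the called probe had -4.23. Pdxdc1 was lower at one pair of probes (-3.53 and -3.24) and differed by 1.03 and 1.18, not called, at another.

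Probes of opposite sign were also found in Mrpl3, a protein of the mitochondrial ribosome, with -1.71 at its called probe and 1.52 (adjusted p = 0.0491) and 1.10 at others. Fv1 is the gene that restricts infection by murine leukaemia viruses and is known for different alleles in these strains. One called probe read 6.90 to 6.97 units in C57BL/6J and 8.05 to 8.08 in DBA/2J, a difference of 1.15, and a second differed by 1.19. Another probe for Fv1 read 15.99, 15.82 and 15.86 units against 13.86, 14.66 and 14.72, a difference of -1.47 with an adjusted p of 0.0346. Probe sequences were not used here. At any called probe, also in genes with several probes, a difference in transcript level and a difference in how the strain's allele binds the probe cannot be told apart.

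**Figure D3:**
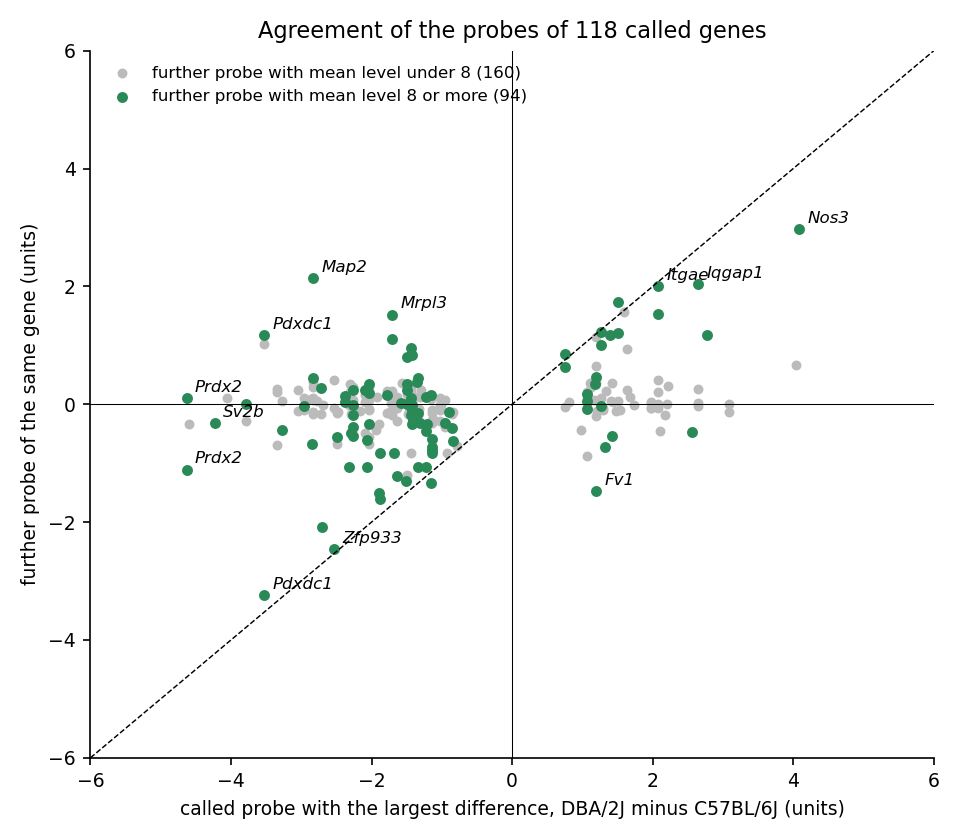
Difference (DBA/2J minus C57BL/6J, units) at each of the 254 further probes of 118 called genes against that of the called probe with the largest difference in the same gene. Green points are the 94 further probes with a mean level of 8 or more, grey points the 160 dimmer ones, and the dashed line marks equal differences. Nos3, Iqgap1, Itgae, Zfp933 and one probe of Pdxdc1 lie near that line, while most points lie near 0 on the vertical axis.

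All 206 called genes have a place in the mouse assembly GRCm38.p6, from which the gene order was taken. A called gene stood among the 5 measured genes on either side for 50 of them, or 24.3%, against 10.3% of all 17607 measured genes with a place. With 2 genes on either side the shares were 15.0% and 4.4%. Without C57BL/6J control replicate 3, in which fewer probes were called, they were 11.2% and 4.3%. The called genes formed 22 groups of neighbours, of which 12 went in 1 direction and 10 held both higher and lower genes. The called share by chromosome was highest on chromosome 4, with 25 of 1054 measured genes or 2.37%, and was 0.312% on the X chromosome.

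Neighbours in opposite directions were found within a few genes of each other. On chromosome 4, Cptp, which carries ceramide-1-phosphate between membranes, was higher at its called probe. Ints11, the endonuclease of the Integrator complex, was lower at its called probe. Cptp read 6.83, 6.93 and 6.56 units in C57BL/6J and 8.66, 9.06 and 9.10 in DBA/2J (2.17 ± 0.17), while Ints11 read 8.10, 8.54 and 8.38 against 6.68, 5.98 and 7.00 (-1.78 ± 0.26). B3galt6, an enzyme of glycosaminoglycan synthesis and 5 places from Cptp, differed by -1.94. A further probe of Cptp, dimmer than the called one (mean levels 6.74 and 7.85), differed by -0.18. The further probe of Ints11 was brighter than its called one (8.72 and 7.45) and differed by 0.15, so a lower level of Ints11 rests on the dimmer probe alone. The call of Ints11 held in 2 of the 6 fits with an array left out, that of Cptp in all 6.

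Cptp and Ints11 are transcribed away from each other, and only 106 bases lie between the annotated gene models. These bases are shown because the genes, whose called probes differ in opposite directions, start at their ends. They are chr4:155869441-155869546 of GRCm38.p6 (RefSeq), given 5′ to 3′ on the strand of Ints11, with Cptp to the left.
Cptp-Ints11: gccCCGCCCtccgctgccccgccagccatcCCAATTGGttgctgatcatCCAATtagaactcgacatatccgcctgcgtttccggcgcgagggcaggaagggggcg
Capitals mark every match, on either strand, to CCAAT, the motif of the factor NF-Y, and to GGGCGG, the motif of Sp1. CCAAT was matched 3 times, with 2 of the matches overlapping on opposite strands, and GGGCGG 1 time, while TATAAA was not matched in this window. Over the 106 bases before each of 32851 promoters in the same table, CCAAT was found in 19.7%, GGGCGG in 25.3% and TATAAA in 5.8%. The GC content of the bases shown was 65.1%. The assembly is that of C57BL/6J, and the sequence of DBA/2J was not analysed here.

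A similar pair lay on chromosome 9, where Abhd14a and Abhd14b, serine hydrolases with overlapping gene models, differed in opposite directions. Abhd14a read 11.35, 10.49 and 10.90 units in C57BL/6J and 8.70, 8.58 and 8.76 in DBA/2J (-2.23 ± 0.21), and Abhd14b 9.69, 10.12 and 10.08 against 12.04, 11.51 and 11.90 (1.85 ± 0.19). Rpl29, a protein of the large ribosomal subunit 3 places away from Abhd14b, read 10.29, 9.94 and 10.36 units against 7.25, 7.17 and 7.55 (-2.87 ± 0.17). Acy1, which lies between Rpl29 and Abhd14a, was not called. Because the models overlap, which of these genes a probe reads is uncertain.

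Other neighbours shared a direction or did not. On chromosome 11, Itgae and P2rx5, an ATP-gated channel, were higher by 2.08 and 2.20 units, whereas Zzef1, 4 places before Itgae, differed by -2.54. A second stretch of that chromosome held Ccdc88a (-2.31), Eml6 (-1.66) and a dim probe of Rtn4, the gene of Nogo (1.06). On chromosome 17, H2-K1 and its neighbour Ring1, a Polycomb protein, were both lower, by -3.04 and -2.11. Lower neighbours were also H2aw and Trim11 (-2.32 and -2.11), Trappc12 and Myt1l (-1.44 and -1.78), Gon4l and Dap3 (-2.09 and -1.88), Mgat3 and Atf4 (-1.38 and -2.69), and Bst1 and Prom1 (-1.25 and -1.15). These are values of the called probe with the largest difference in each gene. The brightest probes of Gon4l and Trappc12 differed by only 0.24 and -0.18, while a further probe of Dap3 was also called (-1.60). Dusp16, a phosphatase of MAP kinases, was lower (-2.84) and Gpr19, an orphan receptor nearby on chromosome 6, higher (1.48). Idh1 (1.39) and Kansl1l (2.56) on chromosome 1 stood on either side of Map2, and Pccb (1.61) on chromosome 9 stood near Cep63 (-1.81) and Rab6b (-1.29). A brighter probe of Kansl1l differed by -0.47 and one of Idh1 by 1.18, neither called.

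**Figure D4:**
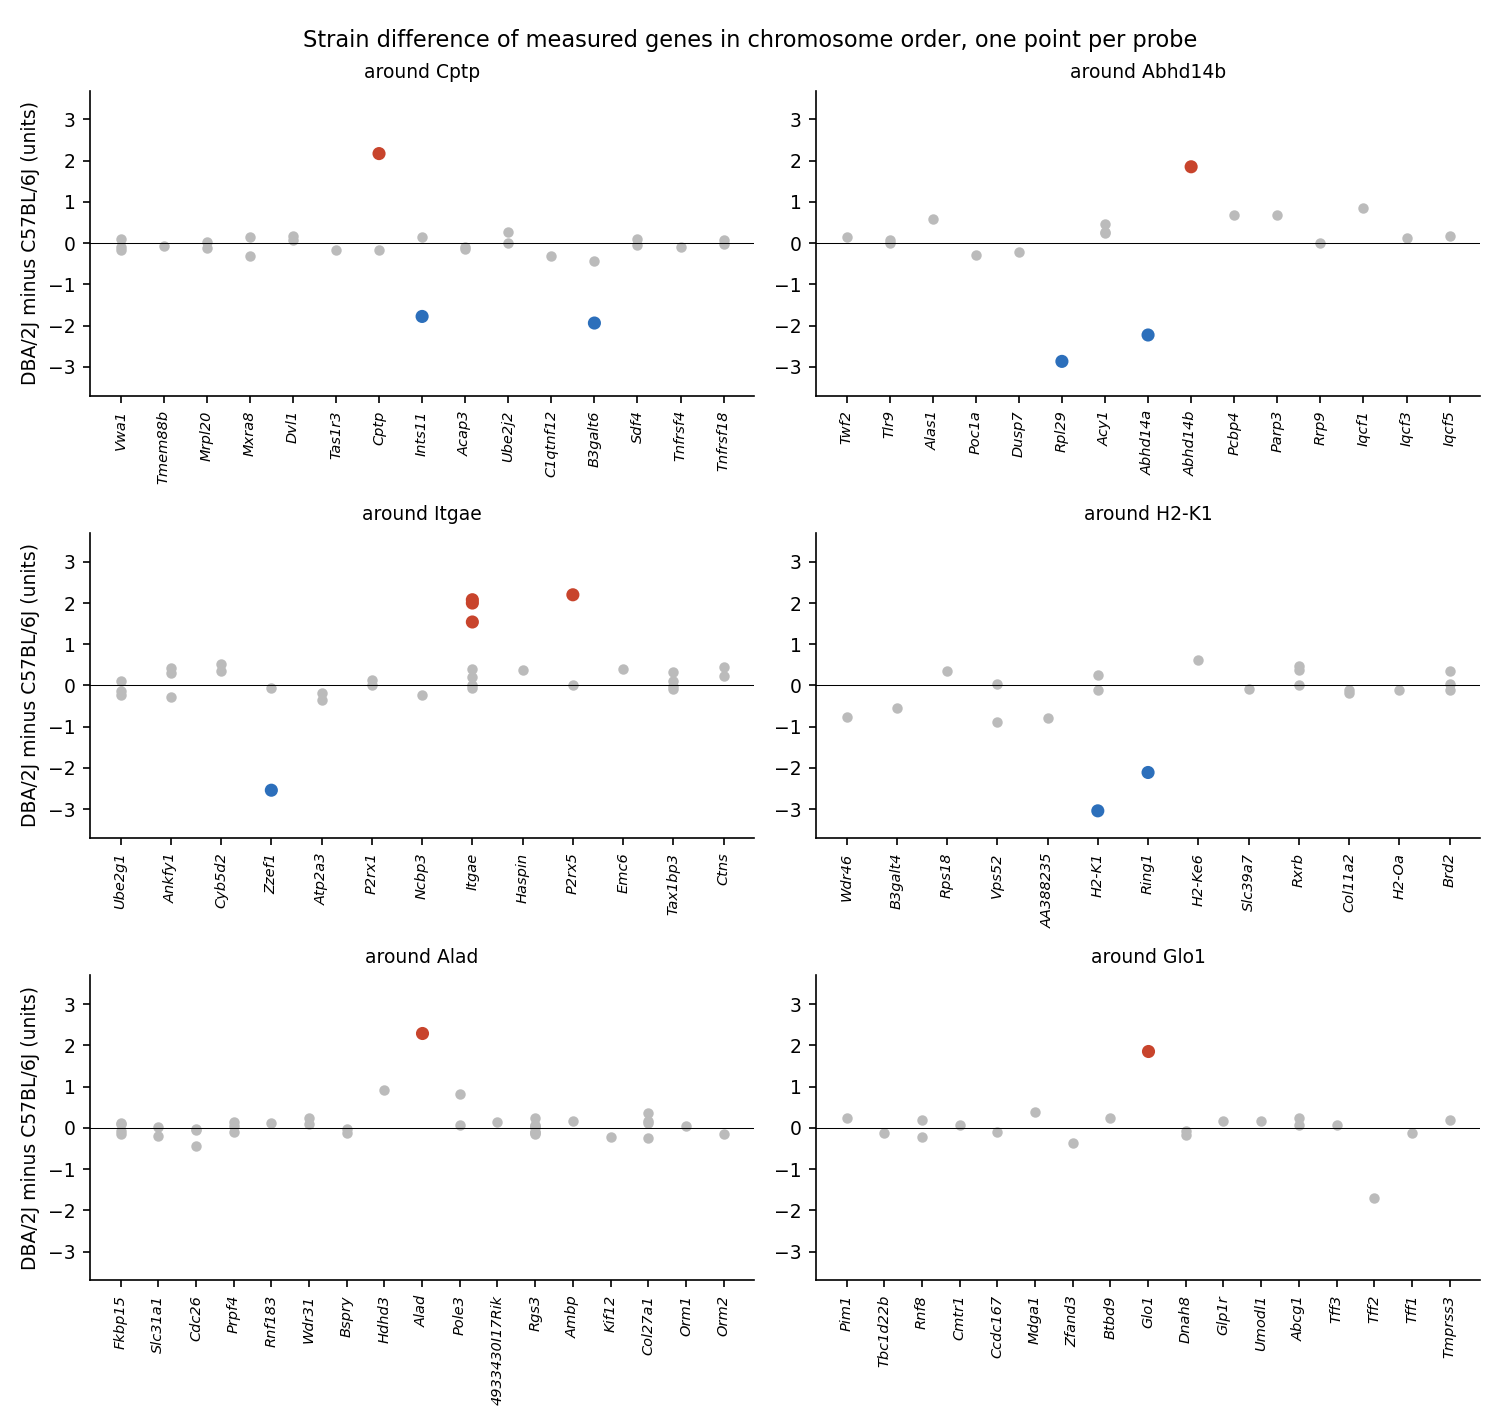
Difference between the strains (DBA/2J minus C57BL/6J, units) for measured genes in chromosome order around 6 genes, with one point per probe, red for called higher, blue for called lower and grey for not called. Neighbours of opposite direction stand around Cptp, Abhd14b and Itgae, and around Alad and Glo1 no other probe was called.

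Families and cell types were described by their counts beside the 1.17% of all genes called and a median difference of 0.01 units over all genes, taken at each gene's probe with the highest level. None of the measured markers of ganglion cells (19 genes), amacrine cells (15), bipolar cells (13), horizontal cells (9), cones (14) or Müller glia (14) was called. Their medians lay between -0.22 and 0.06 units. Of 17 rod genes 1 was called, Rcvrn, the calcium sensor recoverin, which read 13.73, 14.07 and 14.03 units in C57BL/6J and 15.41, 15.16 and 15.35 in DBA/2J (1.37 ± 0.15, adjusted p = 0.0061). Prom1, which shapes the discs of photoreceptors, was lower at 17.79, 17.85 and 18.03 units against 19.15, 19.07 and 18.91 (-1.15 ± 0.13). The call of Prom1 held in 1 of the 6 fits with an array left out and that of Rcvrn in 3. Reactive glia, microglia with macrophages, complement and striated muscle had no called gene.

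Of 45 gene families, 26 had no called member, 11 had 1 and 8 had 2 or more. Psmb6 was the only one called of 48 proteasome subunits, whose median was 0.04 units, Rpl29 of 84 cytosolic ribosomal proteins (median 0.05), Ndufb10 of 56 measured genes of the respiratory chain (0.12) and Casp9 of 9 caspases (-0.12). Casp9, the initiator caspase of the mitochondrial pathway, read 10.28, 10.27 and 10.41 units in C57BL/6J and 7.06, 6.99 and 6.90 in DBA/2J (-3.34 ± 0.12). The other probes of Casp9 differed by -0.69, 0.21 and 0.26. Of 77 mitochondrial ribosomal proteins (median 0.17) Mrpl3, Mrpl35 and Mrpl48 were lower at their called probes, by -1.71, -0.78 and -2.06. Other probes of Mrpl3 were higher, as given above. Of 74 histone genes H4c9 was higher (1.18) and H2aw, H2ac6 and H2ac11 were lower (-2.32, -1.50 and -1.27). Histone genes are close copies of each other, so their probes may not tell them apart.

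Large families of receptors and channels held few called genes, where 1.17% of all genes were called. None was called of 888 olfactory receptors, 145 vomeronasal receptors, 86 potassium channels and 46 ABC transporters. For the potassium channels and ABC transporters, having none called lies near the share over all genes. The median size of difference was 0.09 units for the olfactory and 0.08 for the vomeronasal receptors, against 0.14 over all genes, at each gene's probe with the highest level. Whether these receptors are expressed in retina was not tested. Of 360 solute carriers Slc15a2, a peptide transporter, and Slc5a8, a transporter of monocarboxylates, were lower, by -2.42 and -2.17 units. Grm7, a metabotropic glutamate receptor of synaptic terminals, was the only one called of 20 glutamate receptor subunits and read 7.57, 7.54 and 7.87 units in C57BL/6J and 9.07, 9.30 and 9.04 in DBA/2J (1.48 ± 0.15). Sv2b was the only one of 25 genes of the synaptic vesicle and release. Alad was the only one called of 22 genes of haem synthesis and iron, and Glo1 and Chac1 (-1.49), which degrades glutathione, were those called of 39 genes of glutathione and glyoxal.

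The largest differences of all were not called. The 16 lens crystallins had a median of -4.03 units, and none was called. Crybb2 read 13.52, 15.04 and 21.82 units in C57BL/6J and 9.36, 7.67 and 8.11 in DBA/2J, a difference of -8.42 ± 1.89 with an adjusted p of 0.144. Cryaa read 9.33, 12.45 and 18.55 against 7.31, 7.01 and 7.30 (-6.24, adjusted p = 0.425). Over the 16 genes the mean level was 9.32, 10.76 and 15.70 units on the C57BL/6J arrays and 7.81, 7.38 and 7.84 on the DBA/2J arrays. Replicate 3 of C57BL/6J thus stood far above the other arrays, and the strains did not overlap. The mean of 10 other lens genes was 7.12, 7.54 and 10.26 units against 6.99, 6.94 and 6.94, and Mip, the water channel of lens fibres, read 7.86, 10.14 and 17.19 against 7.48, 7.41 and 7.37. No lens gene of either list was among the 206 called genes.

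Ccn2, a matricellular protein also known as connective tissue growth factor, was the only called member of 14 measured CCN and YAP target genes. Over all genes 1.17% were called. Ccn2 read 13.02, 14.05 and 13.68 units in C57BL/6J and 11.07, 10.53 and 10.69 in DBA/2J (-2.82 ± 0.27, adjusted p = 0.0038). The 25 measured immediate early genes held no other call, and their median was -0.19 units. Of 17 measured genes that the study names for differences between the strains, 7 were called. Cacng5 and H2-D1 were higher, and Casp9, Dap3, Dusp16, Prom1 and Rgs16 were lower. That list was picked from these arrays and is no independent evidence. Among its members that were not called, Hdc, which makes histamine, read 10.26, 8.73 and 8.86 units against 6.92, 6.98 and 6.77 (-2.39, adjusted p = 0.0345), and Slc7a14 differed by 2.69 (adjusted p = 0.0409).

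Other mice of the same strains were measured at 5 days after optic nerve crush, on 6 arrays that share none with the controls. Of the 222 probes, 220 differed in the same direction there, against 54.7% of all 29534, and 124 were called in that direction, where 0.782% of all probes were called at 5 days, 0.261% higher and 0.521% lower. The count called was 51 without DBA/2J replicate 1 of that day and 64 without replicate 3. None was called in the opposite direction. At 201 of them the strains did not overlap at 5 days, against 15.8% of all probes, and the median size was 1.61 units at 5 days and 1.63 in the controls. H2-D1 read 7.09, 6.88 and 6.86 units in C57BL/6J and 10.65, 12.89 and 10.99 in DBA/2J at 5 days (4.57 ± 0.54). Gpnmb (-1.98) and Alad (2.89) were called again, and Glo1 differed by 1.28 with an adjusted p of 0.031.

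At 18 of the 222 probes the difference at 5 days was under 0.5 times that in the controls, with 2 of opposite sign among them, and at 21 the strains overlapped at 5 days. Mest, an imprinted gene, and Mylk, a myosin kinase, differed by 1.12 and 0.75 units in the controls and by -0.11 and -0.18 at 5 days. Ccn2 read 10.87, 10.38 and 11.33 units in C57BL/6J and 10.00, 10.87 and 10.89 in DBA/2J at 5 days, where the strains overlapped and the difference was -0.27. Rpgrip1, a protein of the photoreceptor's connecting cilium, differed by -1.14 in the controls and -0.07 at 5 days, and the clock gene Per3, called higher in the controls, by 0.23 at 5 days. Rcvrn differed by 1.37 and 0.61, Idh1 by 1.39 and 0.43, and Golga7 by 2.10 and 0.98. Oxr1, which protects against oxidative damage, differed at its called probe by -2.72 in the controls and by -1.35 at 5 days, and Zzef1 by -2.54 and -1.12. In the controls, a brighter probe of Oxr1 (mean level 12.35 against 9.32) differed by 0.27 and a dimmer one by -0.16. A brighter probe of Per3 (12.39 against 8.96) differed by 0.46 in the controls. None of these further probes was called. In a test of whether the strain difference itself changed from control to 5 days, over 12 arrays, no probe of 46116 had an adjusted p under 0.03, and 43 of the 222 had an unadjusted p under 0.05, against 4.47% of all probes. The adjusted p of that test was 0.644 for Ccn2 (a change of 2.55 ± 0.46 units) and 0.513, the smallest among the 222, for Oxr1. The probes were chosen by their control values, which enter this test.

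At 2 days, 210 of the 222 probes differed in the same direction as in the controls, with a median of 0.56 units. When both arrays that read like the opposite strain were left out, 218 did, with a median of 1.56. No probe with 1 gene symbol was called at 2 days, with or without them.

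**Figure D5:**
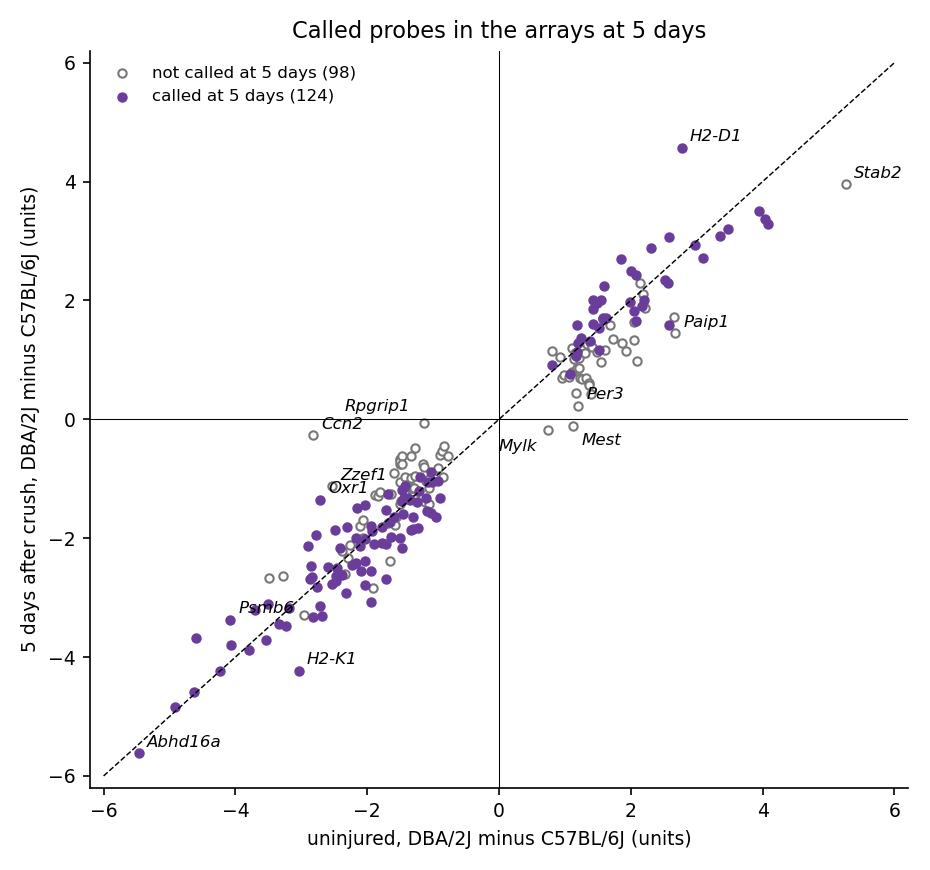
Difference between the strains (DBA/2J minus C57BL/6J, units) at 5 days after optic nerve crush against that in the uninjured controls for the 222 called probes, with filled points for the 124 also called at 5 days and open points for the other 98. The dashed line marks equal differences, and 220 points lie in the quadrants of equal sign, with Rpgrip1, Mest, Mylk, Per3 and Ccn2 nearest to 0 at 5 days.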

How the data were processed

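A raw and a scaled table were deposited for the 18 arrays. The first holds raw intensity of 46116 probes, not normalized, as the authors read it. The second holds scores, for which the authors turned log2 intensity into z-scores array by array, doubled them and added 8. The same steps were applied here to the raw intensity, and 121 probes differed from the deposited scores by over 0.02 units, none of them called. Background correction and detection limits are not given in the sources used here. Gene symbols come from GEO's platform annotation, 29476 of the 29534 probes matched GRCm38.p6 (RefSeq), and 164 of the 206 called genes are in the promoter table.

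limma 3.58.1 in R 4.3.3 (lmFit, eBayes) was fitted to all probes of the 6 control arrays, with 4 residual and 3.61 prior degrees of freedom and Benjamini-Hochberg adjustment over all 46116. 322 probes were called, 222 of them with 1 gene symbol. The same fit was run at 2 and 5 days, and an interaction over 12 arrays. On simulated data the fit was tested for its recovery of known differences. SAM used all 20 relabellings. Alternatives were quantile normalization, normexp with an offset of 50, the deposited scores, the probes above the median level, other thresholds and adjustments, an intensity trend, a replicate block, all arrays in one fit, and each array left out. The number of arrays limits the precision. Correlations of deviations did not settle whether equal replicate numbers pair the arrays. Other steps used matplotlib 3.10.9, pandas 2.3.3, scipy 1.17.1 and numpy 2.4.6 under Python 3.11.15.

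The rule for names took the 12 called probes of largest difference in either direction without overlap, genes of the documented alleles and duplications, genes with 2 or more called probes, the 10 groups of neighbours with most called genes, up to 4 members of each of 80 lists and families with the smallest adjusted p, and genes the study names. Other genes were named after their values were seen. The members and lists were chosen with earlier results of these data known.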

Additional observations from a re-analysis of the deposited data

How the results depend on the processing

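The count of called probes with 1 gene symbol, 222, with 82 higher and 140 lower, was 185 to 292 under quantile normalization, normexp, the deposited scores, the probes above the median level, adjustment over probes with 1 symbol, a threshold of 0.05 and an intensity trend. SAM called 497, with 147 higher and 350 lower, and the share of called genes with a called neighbour was then 36.4%. In a fit of all 18 arrays, 2 probes were called, 1 higher and 1 lower, the neighbour share was 0.0% and 2 lists or families held a called gene in place of 36. In a fit of 16 arrays without the 2-day pair that read like the opposite strain, a setting chosen after seeing the data, 125 probes were higher, and 188 of the 222 were called. With each control array left out, the called probes numbered 85 to 200, the higher ones 31 to 72 and the lower ones 52 to 128. The share of further probes with the same sign was then 53.6% to 57.6%, the neighbour share 11.2% to 21.9% and the lists or families with a called gene 23 to 32. Among the 222, 124 were called at 5 days and 51 to 102 with an array of that day left out. The neighbour share with 2 genes on either side was 15.0%. The cause of these changes was not tested. Fits that leave an array out also hold fewer arrays.

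Equal replicate numbers gave correlations of deviations of -0.22, 0.46 and -0.02, and unequal numbers -0.51 to 0.43. Deviations from a mean of 3 arrays depend on each other, so these values cannot decide whether arrays were paired. The labels do not name the BeadChip of an array, and a shared chip or day was not tested. With a replicate block, 163 probes were called, 57 higher and 106 lower, and 145 of the 222 were among them. All 222 differences kept their sign under quantile normalization and normexp. They also did so under an intensity trend, SAM and each array left out, where the sign was fixed in advance. The first 2 of these use the same difference of means, and leaving out an array cannot reverse groups that do not overlap. Of 158 probes of named genes, 0 reversed a called difference in any alternative, but most alternatives use the same difference of means and could not reverse it. The deposited tables give no detection limit for a probe, and 3 arrays per strain limit the precision.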

Other observations

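Of the 16582 probes without a gene symbol or with several, 100 were called between the strains, and no gene is named for them here. Among the 206 called genes, some that belong to no list above act in cell division. Pttg1 (-4.92), Bub1b (-3.19), a kinase of the spindle checkpoint, Mcm6 (-1.48), a subunit of the replicative helicase, and Rrm1 (-1.12), of ribonucleotide reductase, were lower in DBA/2J, and Prc1 (1.73), which bundles microtubules of the spindle midzone, was higher. These are values of the called probes. Further probes, none of them called, differed by 0.06 and -0.17 for Mcm6, by -0.25 for Rrm1 and by -0.02 for Prc1. The Mcm6 probe with -0.17 was brighter than the called one (mean levels 7.93 and 7.50). These 5 genes were chosen after their values were seen, and no test was made of them as a group. Erdr1 (-2.71) and Fam199x (-1.33) were the only called genes on the X chromosome.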
